A study of Mus musculus with 12 samples.

Results

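The nuclear genes analysed here encode 10 proteins that copy, package or express the mitochondrial genome or regulate such genes from the nucleus, namely Tfam, Polrmt, Tfb1m, Tfb2m, Tefm, Twnk, Polg, Lrpprc, Slirp and Nrf1. They were chosen by gene name, and each matched 1 of the 36175 genes in the deposited expression table. All 10 reached a level of 1 or more in each of the mice, as did 12590 genes in all, and these genes were tested. The values came from B cells of intestinal Peyer's patches (PP), the lymphoid follicles of the small intestine, in 12 male C57BL/6JHsd wild-type mice aged 10 to 12 weeks. In 6 stroke mice the middle cerebral artery was occluded with a filament that was later withdrawn, and in 6 sham controls the filament was placed only in the common carotid artery and taken out at once. PP were taken 18 h after surgery, B cells were enriched with magnetic beads and bulk RNA-seq was performed with a library for each mouse. All mice of both groups received the same pain treatment around surgery, and no allele was altered in either group.

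Mitochondria keep a small circular genome that encodes subunits of the respiratory chain together with the RNAs needed to translate them, whereas every protein that transcribes and replicates it is encoded in the nucleus. Tfam coats and bends mitochondrial DNA and recruits the polymerase to its promoters, Polrmt is the mitochondrial RNA polymerase, Tfb2m opens the promoter, and Tefm keeps the polymerase moving. The same polymerase makes the primers from which Polg, the catalytic subunit of the mitochondrial DNA polymerase, copies DNA behind the helicase Twnk. Lrpprc and Slirp form a complex that protects mitochondrial mRNAs, Tfb1m methylates the small ribosomal RNA, and Nrf1, nuclear respiratory factor 1, is a transcription factor that acts in the nucleus on many genes of this kind. Activated B cells are known to remodel their mitochondria as they enter germinal centers, which PP hold at all times.

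Promoter sequences of the 10 genes were read from RefSeq on build GRCm38.p6 as windows from 250 bases before to 50 bases after each annotated start, which gave 12 windows because some genes have more than 1 start. They were searched on both strands for the letters CGCANGCG, a core of the Nrf1 site, and CCGGAAG, a core of the site of GA-binding protein (GABP), an Ets-family factor known for nuclear genes of the respiratory chain. The 2 motifs do not contain each other. The Nrf1 letters were found in windows of 4 of the 10 genes (Polrmt, Tfb2m, Twnk and Nrf1 itself), which are 4 of the 12 windows, and in 8.21% of 32851 promoter windows of the same length over all genes. Windows of 6 of the 10 genes (Tfam, Polrmt, Tefm, Twnk, Polg and Slirp) held the GABP letters, which are 6 of the 12, against 8.86% of all windows. Stretches of 190 bases, from 160 bases before the start to 30 bases from it, are printed 5′ to 3′ for 4 genes that cover the patterns found, with the matches in capitals. They are Tfam at chr10:71238015-71238204 (minus strand), Polrmt at chr10:79746552-79746741 (minus strand), Tfb2m at chr1:179546247-179546436 (minus strand) and Slirp at chr12:87443736-87443925 (plus strand).
Tfam: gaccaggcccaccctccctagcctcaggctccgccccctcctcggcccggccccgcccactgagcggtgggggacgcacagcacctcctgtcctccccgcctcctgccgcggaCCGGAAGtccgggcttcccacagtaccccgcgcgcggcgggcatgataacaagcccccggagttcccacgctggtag
Polrmt: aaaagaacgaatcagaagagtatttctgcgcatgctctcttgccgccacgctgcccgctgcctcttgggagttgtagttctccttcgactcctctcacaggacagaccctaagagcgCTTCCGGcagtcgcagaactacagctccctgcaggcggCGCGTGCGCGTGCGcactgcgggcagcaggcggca
Tfb2m: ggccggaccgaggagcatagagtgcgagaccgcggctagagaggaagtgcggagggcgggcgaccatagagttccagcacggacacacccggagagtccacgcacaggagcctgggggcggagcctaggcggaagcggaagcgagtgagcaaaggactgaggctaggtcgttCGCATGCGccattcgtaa
Slirp: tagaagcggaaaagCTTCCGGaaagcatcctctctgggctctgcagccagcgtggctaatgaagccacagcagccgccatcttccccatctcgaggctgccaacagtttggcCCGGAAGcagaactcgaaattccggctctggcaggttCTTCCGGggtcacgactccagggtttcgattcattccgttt
The stretch of Tfam held a single GABP match. In Polrmt a GABP match lay upstream of a pair of overlapping Nrf1 matches at the start site, and in Tfb2m a palindromic Nrf1 match followed the start. Slirp had 3 GABP matches and no Nrf1 match. A match of letters is a description of the sequence and not evidence that a factor was bound in these cells.

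The deposited values are gene-level TPM (transcript abundances scaled to a common total) that were normalized further, a scale that corrects for gene length, and their sum per mouse ranged from 559570 in sham control 6 to 1404340 in sham control 1. Sham controls 1 and 2 had the largest sums, and sham control 6 had the lowest sum and the lowest weight when libraries were weighted by their fit (0.274), with stroke mouse 5 next (0.305). The number of reads behind each value is unknown. A list of 7 B cell markers (Cd79a, Cd79b, Ms4a1, Pax5, Cd22, Blk and Fcmr) was present in every mouse, with a summed level of 1820 to 2750 in sham controls and 1440 to 2520 in stroke mice. The summed level of 8 intestinal epithelial markers ranged from 35.1 to 1580 in sham controls and from 31.8 to 719 in stroke mice, and that of 7 plasma cell markers from 271 to 1400 and from 331 to 1030. Those of 8 T cell markers (81.4 to 144 and 67.2 to 175) and of 7 proliferation markers (223 to 480 and 232 to 526) overlapped as well. On the log2 scale all 7 proliferation markers had a higher mean in stroke mice, and the 5 epithelial markers that could be tested had a lower one. The summed level of 7 endothelial markers was 79.4 to 108 in sham controls and 88.3 to 111 in stroke mice. That of 6 macrophage and monocyte markers was 33.4 to 288 and 42.8 to 154, highest in sham controls 1 (288) and 2 (191). That of 7 neutrophil markers was 3.75 to 6.34 and 3.82 to 8.67. In these lists the endothelial Kdr, Emcn and Cldn5, the neutrophil S100a8, Ly6g and Mmp8, and the macrophage Cd14 were below 1 in every mouse. No marker that could be tested passed an unadjusted p of 0.05, but the filter left only 1 of 7 endothelial, 1 of 7 neutrophil, 3 of 6 macrophage, 5 of 8 epithelial and 6 of 7 plasma cell markers to test. In bulk RNA, fewer cells of a type and less RNA per cell cannot be told apart.

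No difference in the regulators between B cells of stroke mice and sham controls was detected, within intervals that leave room for moderate changes. None of the 10 differed at a Benjamini-Hochberg adjusted p under 0.05 in limma, where 0.0% of the 12590 genes tested did, and none had an unadjusted p under 0.05, where 4.42% of all genes did with a higher and 1.69% with a lower level in stroke mice. Their adjusted p ran from 0.791 to 0.989, and the smallest in the whole table was 0.468. The groups overlapped for all 10, whereas they did not overlap for 0.437% of all genes. Means were higher in stroke mice for 4 genes (Tfb2m, Tefm, Twnk and Polg) and lower for 6 on the log2 scale, with a median log2 fold change of -0.02, against 0.01 over all genes tested. The 95% intervals of the 10 fold changes (stroke over sham, on the scale of value plus 0.5) together spanned 0.589 to 1.45.

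**Figure D1:**
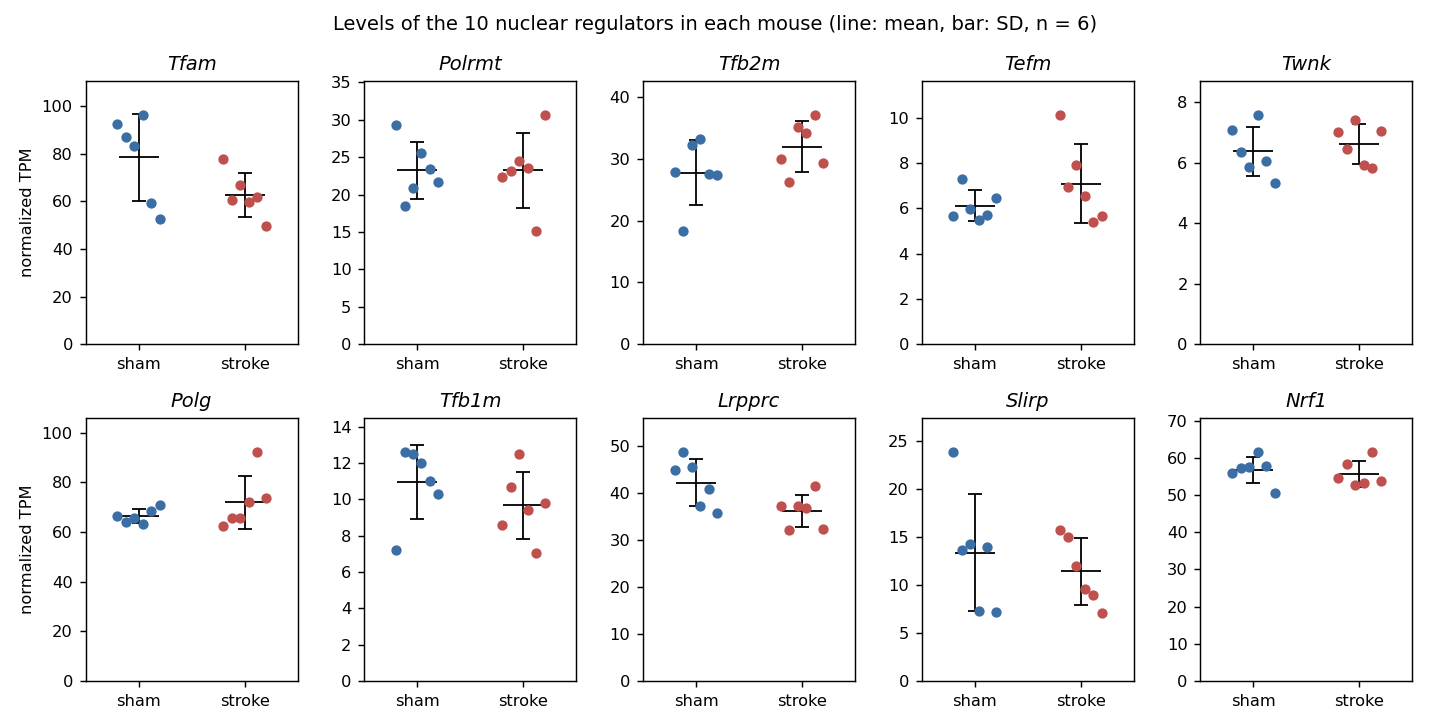
Normalized TPM (vertical axis, from 0) of each of the 10 regulators in 6 sham controls and 6 stroke mice. Each point is a mouse, in label order from 1 to 6, the line is the mean and the bar the SD. The points of the 2 groups overlap in every panel, and those of Tfam in sham controls fall into 4 mice at 83.0 to 96.0 and 2 at 52.5 and 59.3.

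Across all mice, Tfam (mean 70.5) and Polg (69.2) were the most abundant of the 10 per length, followed by Nrf1 (56.3), Lrpprc (39.2), Tfb2m (29.8), Polrmt (23.2), Slirp (12.4), Tfb1m (10.3), Tefm (6.60) and Twnk (6.49). Several steps of this order held in each of the 12 mice: Polg lay above Nrf1, Nrf1 above Lrpprc, Lrpprc above Tfb2m, and Polrmt above Slirp. Other neighbours could not be ordered. Tfam exceeded Polg in 6 of 12 mice, Tefm exceeded Twnk in 7, Slirp exceeded Tfb1m in 8, and Tfb2m exceeded Polrmt in 9. Tfb1m exceeded Tefm in 11. The DNA-packaging protein and the replicative polymerase were thus listed at higher values than the RNA polymerase, and the elongation factor and the helicase at the lowest.

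Tfam (ENSMUSG00000003923, chr10:71225464-71238280, minus strand, build GRCm38) had the largest difference of the 10 genes. In the sham group, mice 1 to 6 had levels of 92.4, 86.8, 83.0, 96.0, 59.3 and 52.5, while the levels of stroke mice 1 to 6 were 77.8, 60.6, 66.8, 59.7, 61.8 and 49.7. Sham controls 1 to 4 exceeded every stroke mouse, whereas sham controls 5 and 6 lay among the stroke mice. The means were 78.3 ± 18.1 in sham controls and 62.7 ± 9.26 in stroke mice (SD, n = 6 each), a log2 fold change of -0.30 (SE 0.17, 95% interval -0.66 to 0.07, limma adjusted p = 0.793, exact two-sided permutation p = 0.117). All 6 stroke mice lay below the sham mean. Without sham control 6 the log2 fold change was -0.40 (limma adjusted p = 0.261), which passed an unadjusted p of 0.05, as 9.20% of all genes then did with a lower level in stroke mice. Without sham controls 1 and 2 it was -0.18 (limma adjusted p = 0.988), and with every mouse rescaled to a common sum -0.17 (adjusted p = 0.942). The median log2 fold change of all genes moved from 0.01 to 0.13 with this rescaling. Over all 25 alternatives to the test the adjusted p of Tfam ran from 0.261 to 0.999. The level of Tfam over the 12 mice had a correlation of 0.707 with the log2 sum of the library's values. For Lrpprc and Twnk this correlation was 0.587 and 0.577. The part of this library measure in the differences was not tested.

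Polrmt (ENSMUSG00000020329, chr10:79736123-79746581, minus strand) was at nearly the same mean in both groups, 23.2 ± 3.81 in sham controls and 23.2 ± 4.95 in stroke mice (SD, n = 6 each). The polymerase ran from 18.5 through a median of 22.6 to 29.3 in sham controls, and from 15.1 through 23.4 to 30.6 in stroke mice. Its lowest and its highest value were both in the stroke group, in mice 5 and 6. The log2 fold change was -0.01 (SE 0.16, 95% interval -0.36 to 0.34, limma adjusted p = 0.989), so differences of either sign within this interval were not resolved.

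Tfb2m (ENSMUSG00000026492, chr1:179528055-179546267, minus strand) was the regulator with the largest difference towards stroke. It was at 27.9, 18.3, 32.2, 33.1, 27.6 and 27.3 in sham controls 1 to 6, compared to stroke mice 1 to 6 at 29.9, 26.2, 35.1, 34.2, 37.0 and 29.3. Only 1 stroke mouse, mouse 2, lay below the sham mean, and the lowest value of all was that of sham control 2. The means of 27.7 ± 5.26 and 32.0 ± 4.12 (SD, n = 6 each) gave a log2 fold change of 0.22 (SE 0.15, 95% interval -0.11 to 0.54, limma adjusted p = 0.814, exact permutation p = 0.16). Without sham control 2 it was 0.10 (adjusted p = 0.991) and without sham controls 1 and 2 it was 0.08 (adjusted p = 0.994).

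Tefm (ENSMUSG00000046909, chr11:80136678-80142175, minus strand), the elongation factor, had a low level, with 5.49, 5.84 and 7.31 as lowest, median and highest in sham controls and 5.38, 6.75 and 10.1 in stroke mice. Stroke mouse 1 had the highest value of the 12, and 4 of 6 stroke mice lay above the sham mean. The means were 6.10 ± 0.682 and 7.09 ± 1.73 (SD, n = 6 each), with a log2 fold change of 0.18 (SE 0.15, 95% interval -0.14 to 0.49, limma adjusted p = 0.832) that was 0.08 without stroke mouse 1.

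Of the replication pair, the helicase Twnk (ENSMUSG00000025209, chr19:45005663-45012762, plus strand) was at 6.37 ± 0.818 in sham controls and 6.61 ± 0.651 in stroke mice (SD, n = 6 each). Its values ran from 5.34 through 6.20 to 7.56 and from 5.82 through 6.73 to 7.41, a log2 fold change of 0.05 (SE 0.11, 95% interval -0.19 to 0.29, limma adjusted p = 0.931). Polg (ENSMUSG00000039176, chr7:79446231-79466362, minus strand) was the steadiest member in sham controls, at 66.6, 64.2, 65.6, 63.1, 68.3 and 70.9 in mice 1 to 6, with a coefficient of variation of 4.28%. In stroke mice 1 to 6 it was at 62.3, 65.7, 65.8, 71.9, 92.2 and 73.8, a coefficient of variation of 15.0%. Stroke mouse 5 lay far above the other mice, and 3 of 6 stroke mice lay on each side of the sham mean. The means were 66.5 ± 2.85 and 71.9 ± 10.8 (SD, n = 6 each), with a log2 fold change of 0.10 (SE 0.11, 95% interval -0.14 to 0.34, limma adjusted p = 0.863) that was 0.03 without stroke mouse 5. Stroke mouse 5 is also the library with the steepest trend of values with transcript length, and Polg had a correlation of 0.756 with that trend over the 12 mice. Twnk and Polrmt had correlations of -0.66 and -0.595 with it. With length and GC trends removed the log2 fold change of Polg was 0.109 (limma adjusted p = 0.871). The part of the length trend in these values was not tested further.

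Among the genes acting on mitochondrial RNA, Lrpprc (ENSMUSG00000024120, chr17:84705247-84790789, minus strand) had the smallest unadjusted p of the 10. The level of this mRNA-stabilizing protein's transcript was 44.9, 48.8, 45.6, 37.3, 41.0 and 35.9 in the 6 sham controls (1 to 6), against 37.2, 32.1, 37.2, 36.8, 41.5 and 32.5 in stroke mice 1 to 6. All 6 stroke mice lay below the sham mean, while sham controls 4, 5 and 6 lay within the range of the stroke mice. The means were 42.3 ± 5.06 and 36.2 ± 3.47 (SD, n = 6 each), and the log2 fold change was -0.22 (SE 0.11, 95% interval -0.46 to 0.03, limma unadjusted p = 0.0769, adjusted p = 0.791). The exact two-sided permutation p of this single gene was 0.0476, and those of the other members lay between 0.117 and 0.935. The log2 fold change of Lrpprc was -0.26 without sham control 6 (limma adjusted p = 0.285) and also -0.26 without stroke mouse 5 (adjusted p = 0.999), and in both cases it passed an unadjusted p of 0.05, as 9.20% and 1.24% of all genes then did with a lower level in stroke mice. Leaving out sham controls 1 and 2 gave -0.14 (limma adjusted p = 0.988), and rescaling every mouse to a common sum gave -0.09 (adjusted p = 0.955). That rescaling moved the median log2 fold change of all genes from 0.01 to 0.13. The adjusted p of Lrpprc ran from 0.285 to 0.999 over the alternatives.

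Slirp (ENSMUSG00000021040, chr12:87443896-87452206, plus strand), the partner of Lrpprc, was the most variable member, with a 3.36-fold range over the 12 mice. It was at 23.8, 13.6, 14.2, 7.27, 13.9 and 7.21 in the 6 sham controls (1 to 6), against 15.7, 15.0, 12.0, 9.59, 8.98 and 7.09 in stroke mice 1 to 6. High and low mice occurred in both groups, and sham control 1 was the highest. Over the 12 mice Slirp had a correlation of 0.695 with the log2 sum of the library's values and of -0.603 with the trend of values with transcript length. The means were 13.3 ± 6.10 and 11.4 ± 3.44 (SD, n = 6 each), with a log2 fold change of -0.16 (SE 0.28, 95% interval -0.76 to 0.45, limma adjusted p = 0.915) that turned to 0.03 without sham control 1. Nearly all of the exonic sequence of Slirp, 2914 of 3104 bases in the GENCODE annotation, is also exonic in Snw1, a gene of the opposite strand. Because the sources used here do not say whether the libraries kept strand, it is unknown how well reads of the 2 genes were told apart. The level of Slirp and its ratio and correlation with Lrpprc share this limit. Smaller exonic overlaps with opposite-strand genes were found for Polg with Fanci (921 of 10742 bases), Twnk with Mrpl43 (507 of 4013) and Tfb1m with Tiam2 (142 of 3609).

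Tfb1m (ENSMUSG00000036983, chr17:3519256-3557781, minus strand), the ribosomal RNA methyltransferase, was at 10.9 ± 2.04 in sham controls and 9.67 ± 1.85 in stroke mice (SD, n = 6 each). The lowest, median and highest were 7.20, 11.5 and 12.6 against 7.05, 9.61 and 12.5, and 5 of 6 stroke mice lay below the sham mean. The log2 fold change of -0.17 (SE 0.16, 95% interval -0.51 to 0.18) was not called (limma adjusted p = 0.857), and it was -0.27 without sham control 1 and -0.08 without stroke mouse 5. Its paralog Tfb2m differed with the opposite sign, although neither difference passed the test.

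Nrf1 (ENSMUSG00000058440, chr6:30047988-30153458, plus strand) was the most even member, with a 1.22-fold range over the 12 mice. This transcription factor was at 50.6, 57.5 and 61.6 (lowest, median and highest) in sham controls and at 52.7, 54.1 and 61.5 in stroke mice. The means were 56.8 ± 3.58 and 55.7 ± 3.52 (SD, n = 6 each), a log2 fold change of -0.03 (SE 0.09, 95% interval -0.23 to 0.17, limma adjusted p = 0.952). On the linear scale this interval runs from 0.852 to 1.13, the narrowest of the 10.

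**Figure D2:**
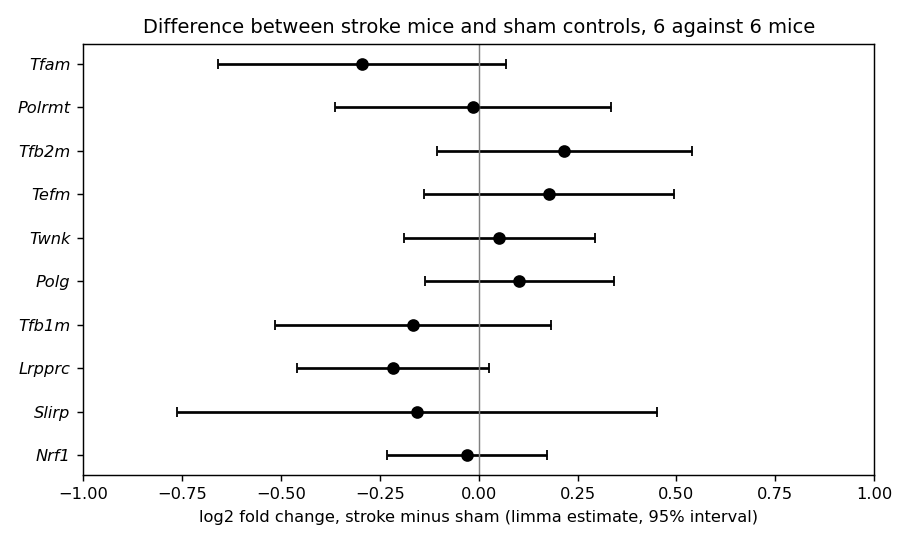
Log2 fold change of each regulator in stroke mice relative to sham controls (horizontal axis). Points are the limma estimates and bars their 95% intervals with 6 mice per group. Every interval includes 0, the widest is that of Slirp (-0.76 to 0.45) and the narrowest that of Nrf1 (-0.23 to 0.17).

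**Figure D3:**
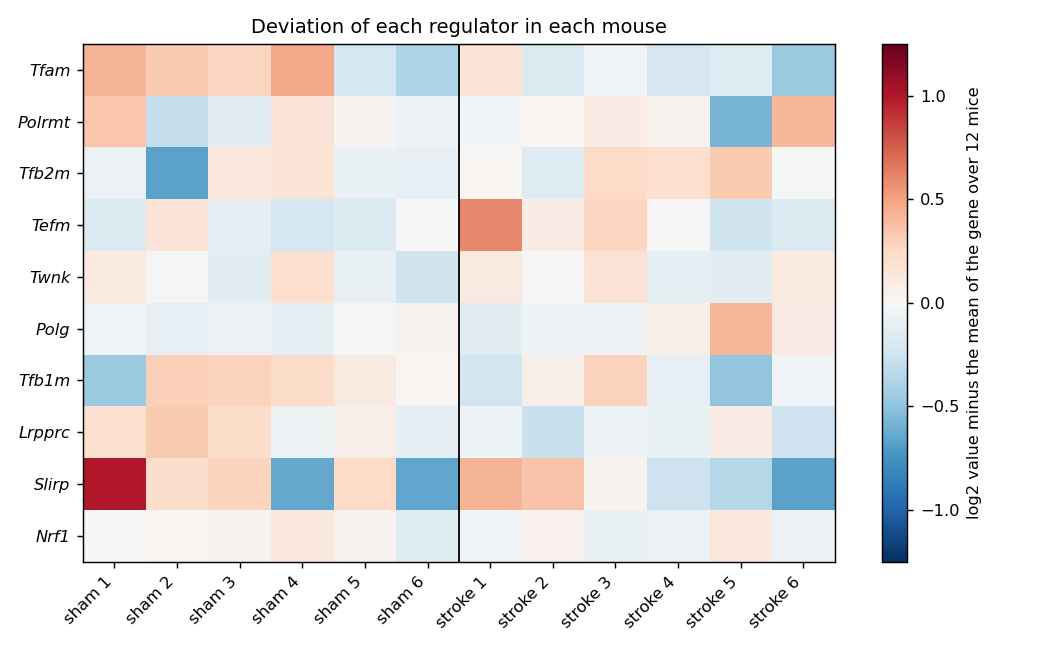
Log2 value of each regulator in each mouse minus the mean of that gene over the 12 mice, as colour, with sham controls left and stroke mice right of the line. Slirp has the strongest colours and Nrf1 the palest, and no mouse is high or low for all 10 genes.

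The regulators did not vary as a block over the mice. Of the 45 pairs of the 10 genes, 24 had a positive Pearson r over the 12 mice, with a median of 0.04 and a range from -0.575 (Tfb1m with Polg) to 0.632 (Tfam with Lrpprc). Among 5 pairs of partners, Slirp and Lrpprc had an r of 0.476 (permutation p = 0.117, adjusted over the 5 pairs 0.321, Spearman's rho 0.357, p = 0.255). It was 0.774 within sham controls, -0.053 within stroke mice and 0.207 without the 2 mice farthest from the median of Slirp. Relative to the mean of all genes it was 0.254 (permutation p = 0.423). Twnk and Polg had an r of -0.455 (permutation p = 0.129, adjusted 0.321, rho -0.434, p = 0.162). It was -0.752 within sham controls and -0.668 within stroke mice (permutation p = 0.0819 and 0.126, not adjusted), and -0.256 relative to the mean of all genes (permutation p = 0.425). Twnk and Polg had correlations of -0.66 and 0.756 with the trend of values with transcript length. The part of that trend in their relation was not tested. Polrmt had an r near 0 with each of its cofactors (0.04 with Tfb2m, -0.08 with Tefm and -0.01 with Tfam, adjusted permutation p = 0.966 for each). Within the groups these values spread more widely, in sham controls and stroke mice respectively to 0.575 and -0.533 for Tfb2m, -0.821 and 0.165 for Tefm and 0.253 and -0.382 for Tfam. That of Tefm in sham controls had a permutation p of 0.0403, which is not adjusted, and the differences between groups were not tested.

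Ratios between partners within a mouse cancel the scaling of its values, apart from the small effect of the 0.5 added before the logarithm for the test, and none of the 5 passed the test between the groups. The ratio of Tfam to Polrmt was 3.42 ± 0.886 in sham controls and 2.84 ± 0.85 in stroke mice (SD, n = 6 each, exact permutation p = 0.264, adjusted over the 5 ratios 0.675). For Tfb2m to Polrmt it was 1.20 ± 0.215 and 1.46 ± 0.523 (exact permutation p = 0.325, adjusted 0.675), and 5 of the 6 stroke mice lay between 0.956 and 1.45 while stroke mouse 5 was at 2.45. Tefm to Polrmt stood at 0.272 ± 0.0728 and 0.315 ± 0.0881 (exact p = 0.405, adjusted 0.675). Slirp to Lrpprc stood at 0.309 ± 0.123 and 0.317 ± 0.106, and Twnk to Polg at 0.0964 ± 0.0156 and 0.094 ± 0.019 (adjusted exact permutation p = 0.835 for both). Transcripts of the helicase were thus far below those of the polymerase in both groups. The ratio of Tfam to Tfb2m, chosen after the values were seen and therefore not tested, ran from 1.93 to 4.76 in sham controls and from 1.67 to 2.60 in stroke mice.

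**Figure D4:**
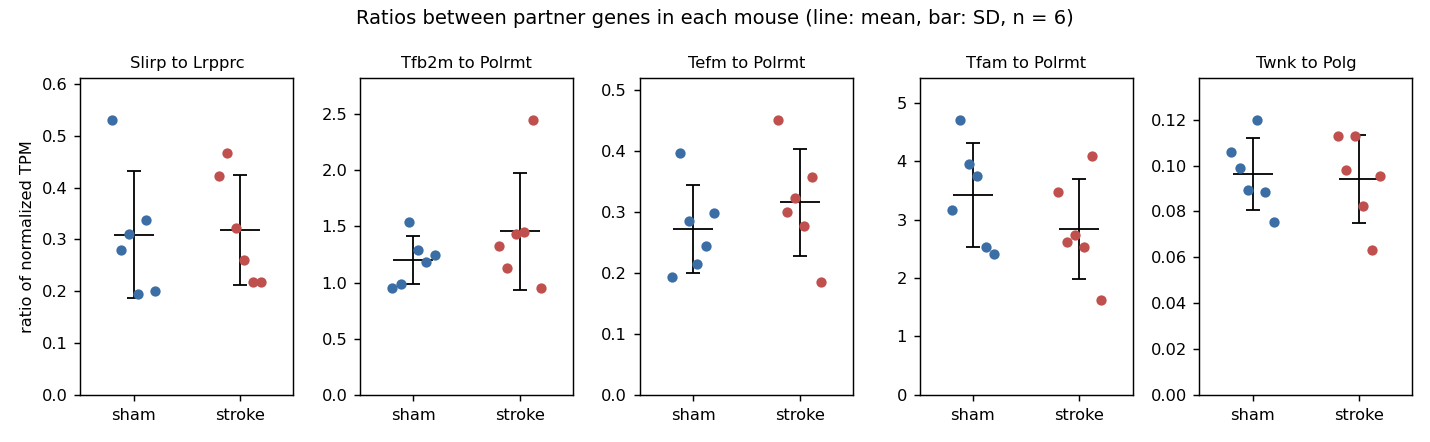
Ratio of normalized TPM between partner genes in each mouse (vertical axis, from 0). Points are mice in label order, the line is the mean and the bar the SD with n = 6 per group. The groups overlap for all 5 ratios, and stroke mouse 5 stands at 2.45 for Tfb2m to Polrmt.

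The transcripts that these proteins make and protect were compared in the same mice. Of the 13 protein-coding transcripts of the mitochondrial genome, 11 had a higher mean log2 value in stroke mice. Over all genes tested, 6466 of 12590 did. The median log2 fold change of the 13 was 0.55, and 0 had an adjusted p under 0.05. An unadjusted p under 0.05 was reached by 5 of the 11 (against 4.42% of all genes). These 5 were mt-Co2 (log2 fold change 0.85), mt-Nd5 (0.77), mt-Nd1 (0.70), mt-Co1 (0.60) and mt-Nd6 (0.60), which encode subunits of complex IV and complex I, with limma adjusted p between 0.749 and 0.791. The mean log2 value of the 13 was 10.9 ± 0.361 in sham controls and 11.3 ± 0.366 in stroke mice (SD, n = 6 each, exact permutation p = 0.0693). Sham controls 1 and 2, which had the largest sums of values and the highest epithelial marker levels (1580 and 1430), also had the lowest levels of all 5, such as 674 and 619 for mt-Nd5. Without these 2 mice the median log2 fold change was 0.33 and 1 transcript, mt-Atp6, which is not among the 5, was higher at an unadjusted p under 0.05, where 3.56% of all genes were. The part of these libraries in the difference was not tested further. The 2 mitochondrial ribosomal RNAs, mt-Rnr1 and mt-Rnr2, were sought by name. Neither matched a single gene of the deposited values, so they could not be analysed.

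Over the 12 mice, the mean of these transcripts was related to no regulator after adjustment over the 10 relations. Tfb2m came closest, with an r of 0.591 (permutation p = 0.04, adjusted 0.219) and a rho of 0.664 (p = 0.0219). It had an r of 0.638 relative to the mean of all genes (permutation p = 0.0258, not adjusted) and of 0.258 without the 2 mice farthest from the median of Tfb2m (permutation p = 0.464). Within groups of 6 mice its r was 0.271 in sham controls and 0.824 in stroke mice (permutation p = 0.474 and 0.0264). Polg had an r of 0.577 (permutation p = 0.0439, adjusted 0.219, rho 0.406, p = 0.191) that was 0.127 without the 2 mice farthest from its median. Tfam had an r of -0.426 (permutation p = 0.163, adjusted 0.543, rho -0.399, p = 0.197), and the remaining members lay between -0.291 and 0.154.

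A wider list of 67 nuclear genes of the same processes was tested in the same way. Among the 67, 26 had a higher and 41 a lower mean log2 value in stroke mice, where 48.6% of all genes tested were lower. An unadjusted p under 0.05 was reached by 1 of the higher and 3 of the lower genes (against 4.42% and 1.69% of all genes tested). After adjustment 0 passed, and the median log2 fold change was -0.05. None of 16 genes of mitochondrial DNA replication and maintenance passed an unadjusted p of 0.05 (10 higher, 6 lower), among them Polg2, the accessory subunit of the polymerase (16.1 ± 4.60 and 18.2 ± 1.89), and Ssbp1, the single-strand binding protein (44.4 ± 3.49 and 44.4 ± 4.40). The 5 members of the Mterf family and the 3 proteases of the nucleoid gave none either. Of 30 genes of RNA processing, modification and decay, 9 were higher and 21 lower, with 1 in each direction at an unadjusted p under 0.05, where all genes gave 4.42% higher and 1.69% lower. The lower gene was Fastkd2, an RNA-binding protein of mitochondrial RNA granules, at 13.0 ± 2.18 in sham controls and 9.90 ± 1.09 in stroke mice (log2 fold change -0.37, SE 0.13, limma unadjusted p = 0.0130, adjusted p = 0.749). The higher gene, named after its value was seen, was Prorp, the nuclease subunit of mitochondrial RNase P (4.79 ± 1.32 and 6.37 ± 0.952, log2 fold change 0.40, adjusted p = 0.791).

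Of 13 nuclear transcription factors and coactivators, 3 had a higher and 10 a lower mean, where 48.6% of all genes tested were lower. Among the lower ones, 2 reached an unadjusted p under 0.05, as 1.69% of all genes did with a lower level. Gabpb1 (chr2:126627442-126676337), which encodes a beta subunit of GABP, the factor whose core letters stand in promoter windows of 6 regulators (Tfam, Polrmt, Slirp, Tefm, Twnk and Polg, of which the first 3 had a negative and the others a positive log2 fold change), had the smallest p of the wider list. It was at 40.7, 47.0, 40.2, 38.0, 41.5 and 30.8 in the 6 sham controls (1 to 6), against 32.9, 30.4, 26.0, 28.7, 24.9 and 27.8 in stroke mice 1 to 6. The groups overlapped only through sham control 6 and stroke mouse 1. The log2 fold change was -0.47 (SE 0.12, limma unadjusted p = 0.00165, adjusted p = 0.716, exact permutation p = 0.00433), and rescaling every mouse to a common sum gave -0.34 (limma adjusted p = 0.942). Gabpa, the DNA-binding alpha subunit, was at means of 36.5 and 36.3 (log2 fold change -0.01, limma adjusted p = 0.996, exact permutation p = 0.981). Gabpb2, the other beta subunit, was at 63.6 and 72.8 (log2 fold change 0.21, limma adjusted p = 0.791, exact permutation p = 0.0346). Creb1, a cyclic AMP-responsive factor, was at 89.8, 86.5, 85.9, 89.1, 78.0 and 76.1 in the 6 sham controls (1 to 6), against 74.4, 74.9, 73.9, 76.4, 61.6 and 69.0 in stroke mice 1 to 6. Its groups overlapped only through sham control 6 and stroke mouse 4 (log2 fold change -0.23, SE 0.10, limma unadjusted p = 0.0342, adjusted p = 0.791, exact permutation p = 0.00433). Rescaling every mouse to a common sum gave -0.11 for Creb1 (limma adjusted p = 0.947), and its unadjusted p was under 0.05 in 16 of 25 alternatives. With that rescaling, given for both Gabpb1 and Creb1, the median log2 fold change of all genes was 0.13. Ppargc1a and Ppargc1b, coactivators of mitochondrial biogenesis, were at low means of 3.39 and 3.15 and of 9.26 and 9.78.

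**Figure D5:**
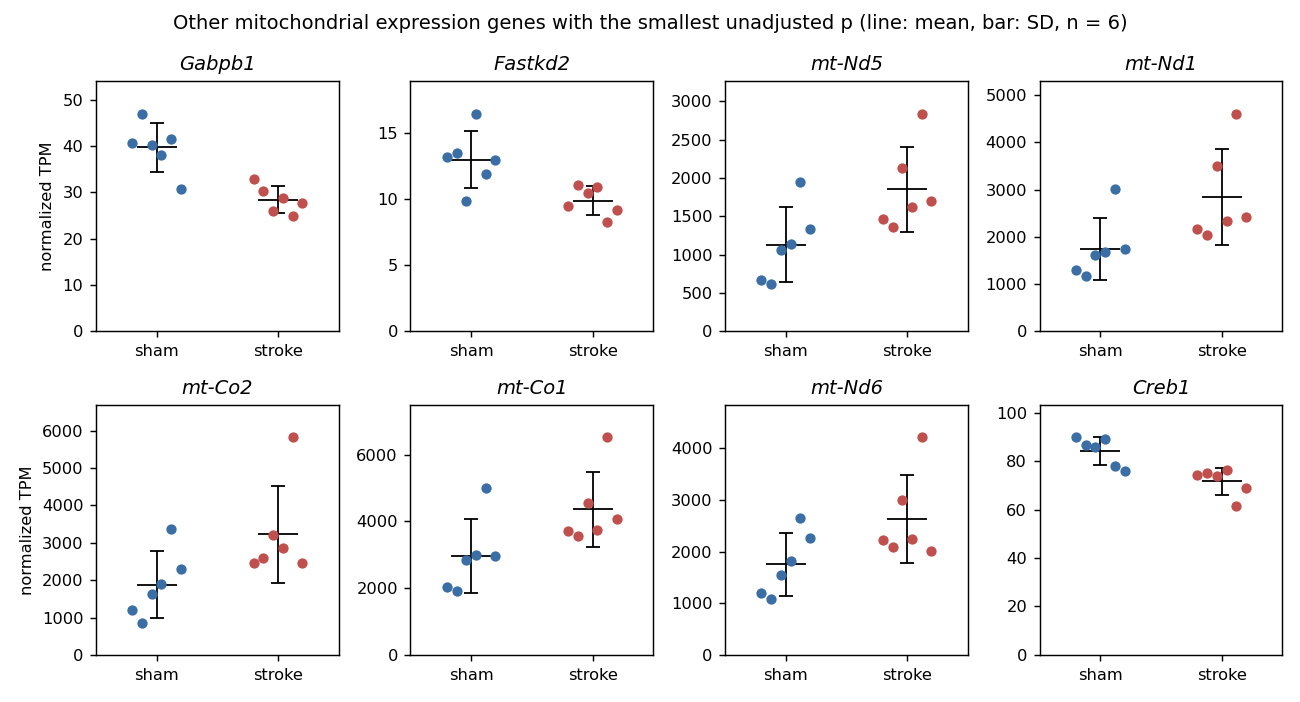
Normalized TPM (vertical axis, from 0) of the 8 genes with the smallest unadjusted p among the wider nuclear genes and the mitochondrial transcripts, in 6 sham controls and 6 stroke mice. Points are mice in label order, the line is the mean and the bar the SD. The groups of Gabpb1 overlap only through sham control 6, and none of the 8 genes passed an adjusted p of 0.05.

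The genes whose levels followed Tfam most closely over the 12 mice, relative to the mean of all genes in each mouse, were Ppp1cb (Pearson r 0.903), Rab18 (0.893), Rtn4 (0.875), P2ry10 (0.874) and Irgc1 (0.868). None of the other 9 regulators was among them. These r are the highest of the whole table and describe these 12 mice, which also share differences in library sum.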

How the data were processed

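Magnetically purified PP B cells of 12 mice were sequenced by the authors, with a library for each mouse. According to the submitters' processing notes and the methods, the authors trimmed reads with Trimmomatic 0.39, quantified them with kallisto 0.48.0 on GRCm38 and used sleuth 0.30.0 in R 4.1.2. The deposited values are an expression signal by gene labelled as normalized TPM, and because the column sums differ they are not plain TPM, which the test design had assumed. The number of reads is unknown, so counting error could not be estimated. Genes at 1 or more in all mice (12590) were transformed as log2(value + 0.5) and compared between groups by limma 3.58.1 (R 4.3.3), with group as the sole term and with Benjamini-Hochberg adjustment over all of them. On this scale the change of low genes is understated. Single values and ratios were compared by exact two-sided permutation tests over the 924 assignments of mice to groups of 6 (smallest possible p 0.00216), and correlations over mice with 100000 permutations. The replicates are separate mice, and p-values measure the spread between them. The study combined mice of several independent experiments, and since no label says which mouse belongs to which, an experiment could not be used as a batch. Gene positions are from GENCODE M21, and promoters from RefSeq GRCm38.p6. The limma script was tested on simulated data. The genes and lists were chosen with earlier results of these data known. Named genes are the 10 regulators, up to 8 wider genes with the smallest unadjusted p under 0.05, and the 5 genes most like Tfam. Polg2, Ssbp1, Prorp, Gabpa, Gabpb2, Ppargc1a, Ppargc1b and mt-Atp6 are named outside this rule, after their values were seen. Alternatives were other pseudocounts, filters, scalings, weights, trends, a replicate block and leaving out mice. A gene of the B cell marker list is not reported here, and the list was summed without it.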

Additional observations from a re-analysis of the deposited data

Results flagged for a closer look

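In 1 of the 30 groups of 6 mice examined for a value far from the rest, a mouse stood apart. The ratio of Tfb2m to Polrmt in stroke mouse 5 was 2.45, against a group median of 1.38, and its gap to the next mouse took a share of 0.671 of the group's range, above the 95% limit of Dixon's test for 6 samples. This mouse had the lowest Polrmt value and the highest Tfb2m value of the 12. Chance flags about 1 in 20 groups.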

How the results depend on the processing

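No regulator passed an adjusted p of 0.05 under any of the 25 alternatives, of which 2 (sham controls 1 and 2 left out together, and length and GC trends removed) were chosen after seeing the data. Tfam, Tfb1m, Tfb2m, Tefm, Polg and Lrpprc kept their direction in all 25, although rescaling to a common sum moved Tfam to -0.17, Tfb1m to -0.0499, Lrpprc to -0.0916, Tfb2m to 0.339, Tefm to 0.292 and Polg to 0.228. Unadjusted, 1 regulator (Lrpprc) had a p under 0.05 without the filter on low values (1.10% of all genes lower), 2 (Tfam and Lrpprc) with sample quality weights (5.58% lower), and 0 to 2 with a mouse left out (9.20% lower without sham control 6). Adjusted calls in the whole table numbered 1 with a filter on the mean and 0 to 1 with a mouse left out.

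Higher and lower genes at an unadjusted p under 0.05 numbered 557 and 213, and 1418 and 350 without the filter, 348 and 70 when rescaled to a common sum, 348 and 67 when immunoglobulin genes were removed before that rescaling, 461 and 265 with median-of-ratios scaling, 378 and 327 with quantile normalization, 866 and 703 with weights, 448 and 139 without sham controls 1 and 2, and 396 to 937 and 144 to 1158 with a mouse left out, the highest without sham control 6. Rescaling moved the median log2 fold change of all genes to 0.13 and that of the regulators to 0.102 (0.0983 with immunoglobulin genes removed first), so relative to all genes the regulators did not move up. With a mouse left out it ran from -0.0512 to 0.0423. With the replicate block the counts were 770 and 404, and no regulator was called (Tfam adjusted p = 0.533). Same-numbered mice had correlations of 0.494, 0.212, 0.0761, 0.139, 0.0134 and 0.373, not every sample correlated best with its own number, and no label gives a meaning to the numbers.

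For the wider genes and the mitochondrial transcripts the same alternatives were added after seeing the data, and 0 passed adjustment in any. Transcripts higher at an unadjusted p under 0.05 numbered 5, and 9 with the replicate block (6.12% of all genes higher), 3 with an intensity trend (4.46%), 1 without sham controls 1 and 2 (3.56%) and 4 to 9 with a mouse left out (9 without sham control 5, 4.36%). Wider genes numbered 1 higher and 3 lower, and 2 higher without the filter (4.45% of all genes higher), 0 higher and 0 lower under both rescalings (2.76% and 0.556% with rescaling alone), 0 higher with quantile normalization (3.0%), 0 higher and 2 lower without sham controls 1 and 2 (3.56% and 1.10%), and 0 to 4 higher and 2 to 7 lower with a mouse left out, the most without sham control 6 (7.44% and 9.20%). The adjusted p of Gabpb1 ran from 0.141 to 0.991.

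The small difference of Polrmt turned to 0.109 and 0.105 under the 2 rescalings, 0.000897 with quantile normalization and 0.0428 with weights (-0.0979 to 0.101 with a mouse left out). That of Nrf1 turned to 0.096 and 0.0919 under the rescalings, and that of Twnk to -0.0055 with weights (0.00697 to 0.0998 with a mouse left out). That of Slirp turned to 0.113 without sham controls 1 and 2 (-0.302 to 0.0302 with a mouse left out). Under the same 2 rescalings the median log2 fold change of all genes moved from 0.00694 to 0.127 and 0.125, so these turns of Polrmt and Nrf1 came with a shift of the whole table. The log2 ratios of Slirp to Lrpprc (-0.059 to 0.227) and of Twnk to Polg (-0.114 to 0.0564) changed sign with a mouse left out, and those of Tfb2m (0.071 to 0.337), Tefm (0.0857 to 0.331) and Tfam (-0.395 to -0.134) to Polrmt kept theirs and were smallest in size without stroke mice 5, 1 and 6, respectively. Pearson r changed sign within stroke mice for Slirp and Lrpprc (-0.053), Tfb2m and Polrmt (-0.533), Tefm and Polrmt (0.165), and the mitochondrial transcripts with Tfam (0.182) and Lrpprc (0.804). Within sham controls it did so for Tfam and Polrmt (0.253) and for the transcripts with Polrmt (0.194) and Tfb1m (0.0481). Without the 2 farthest mice it did so for Tfb2m and Polrmt (-0.0639) and for the transcripts with Polrmt (0.240), Lrpprc (0.221) and Slirp (0.00631), and relative to all genes for those with Tefm (0.0204) and Twnk (0.0535). The cause of these changes was not tested. Depth is unknown and its limit on these values could not be set.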
